A study of Rattus norvegicus with 8 samples.

Results

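The 9 genes Acat2, Hmgcs1, Mvk, Pmvk, Mvd, Idi1, Fdps, Fdft1 and Sqle encode enzymes that carry acetyl-CoA to squalene epoxide, and they were chosen by gene symbol from 32545 annotated genes measured in rat liver. Each symbol matched exactly 1 row, whose description names the enzyme, and all 9 were expressed highly enough to be tested. Their levels came from bulk RNA-seq of 8 liver libraries from wild type Sprague-Dawley rats, an outbred laboratory strain. Of these, 3 were from rats on regular chow (ND) and 5 from rats on a high fat diet (HFD). Fat gave 8.5% of calories in ND and 41% in HFD. Carbohydrate gave 59.6% in ND and 43% in HFD, and protein 20.3% in ND and 17% in HFD. Each diet group had 12 rats. All had free access to food. The labels give an age of about 22 weeks and 24 weeks of high fat feeding, a mismatch they do not resolve. No label says whether each library came from a rat of its own, so p-values measure the spread between these libraries, which may be technical.

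In the mevalonate pathway, acetyl-CoA units are condensed to HMG-CoA, which is reduced to mevalonate. Mevalonate is phosphorylated and decarboxylated to isopentenyl diphosphate, and these isoprenoid units are joined to farnesyl diphosphate, squalene and finally the sterols. The liver is a main site of cholesterol synthesis, and the genes of the pathway are classical targets of the transcription factor SREBP-2, which is activated when sterols in the endoplasmic reticulum run low. Isoprenoids from the same pathway also feed ubiquinone, dolichol and protein prenylation.

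Every one of the 9 genes had a lower fitted level in HFD. The differences ran from 1.56-fold for Mvk to 4.40-fold for Acat2. The median log2 fold change of the 9 (HFD minus ND) was -1.45, against 0.01 over the 14148 genes tested, of which 48.8% had lower fitted values. None of the 9 passed edgeR's quasi-likelihood test after Benjamini-Hochberg adjustment over all genes, where passing means an adjusted p under 0.05. Their adjusted p ran from 0.118 for Acat2 and Fdps to 0.940 for Hmgcs1, and 1 gene of all those tested passed (0.00707%). At an unadjusted p under 0.05, 8 of the 9 were lower, against 2.83% of all genes in that direction. A log2 fold change of -1 or lower was found for 8 of the 9 and for 1.19% of all genes. DESeq2, another count test, called 5 of the 9 lower, namely Acat2, Pmvk, Mvd, Fdps and Fdft1, where it called 0.442% of 15374 genes lower and 0.41% higher.

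Whether the ranges of the diets met depended on 2 libraries. Levels are given here as FPKM, counts scaled by gene length and by the table total. The 5 HFD values lay below all 3 ND values for Acat2, Mvd and Fdps, which is 3 of 9 genes where 1.65% of all tested genes showed this. The library HFD-3 was the highest of the HFD group for 9 of 9 genes, and it was the highest of that group for 24.1% of all genes. Without it, the ranges were apart for 8 of 9 genes (all but Mvk) against 2.28% of all genes, and the median log2 fold change was -1.77. The library ND-1 was the lowest of the chow group for 9 of 9 genes, against 41.2% of all genes. Without ND-1 the ranges were apart for all 9, against 5.18% of all genes. Each of these 2 libraries was the extreme of its diet for all 9 genes, so leaving it out could only part their ranges further. It was not the extreme for most of all genes, so the shares over all genes are not a like comparison.

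**Figure D1:**
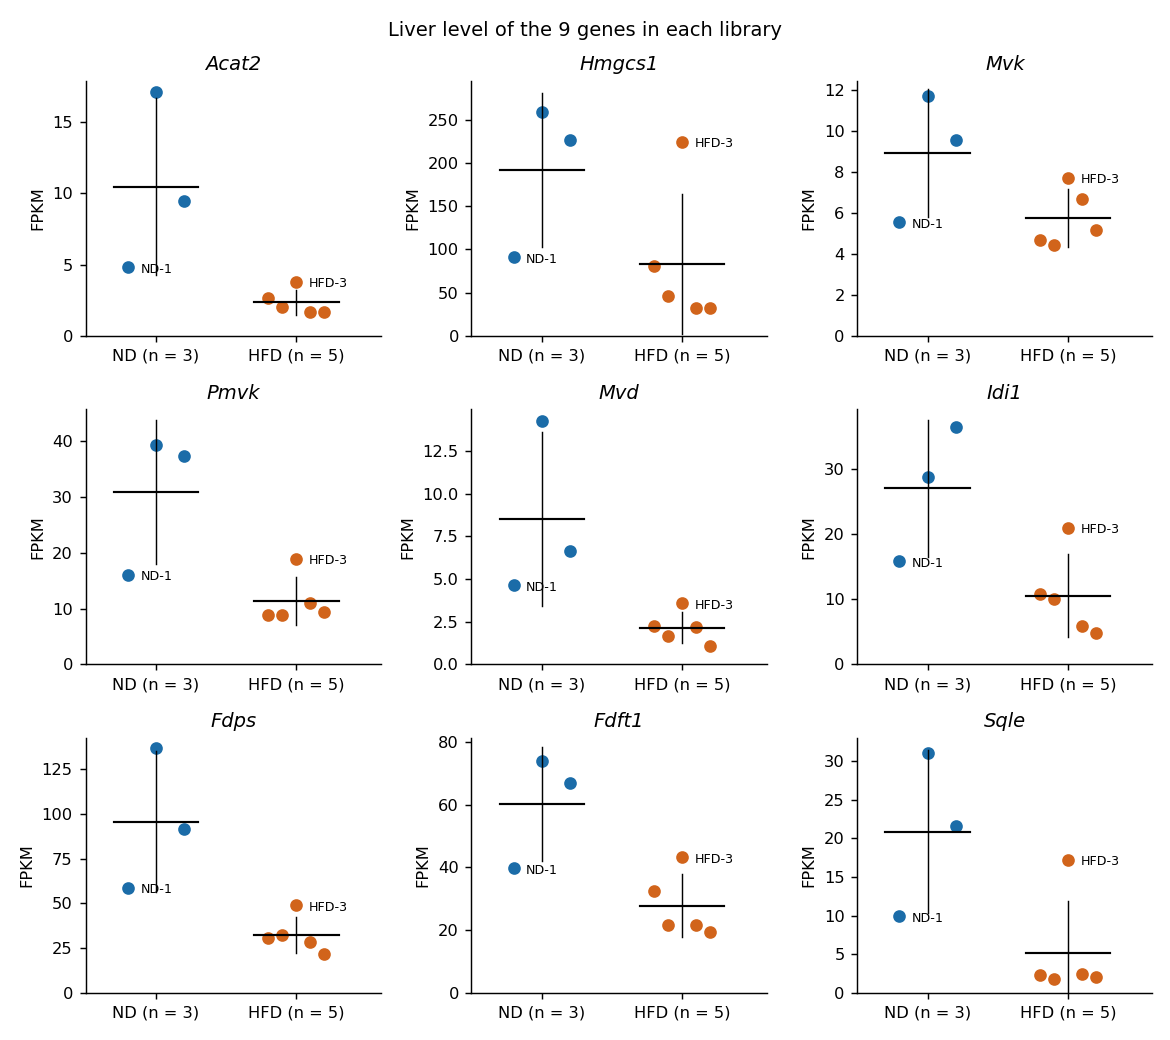
Each panel plots the FPKM of 1 gene (vertical axis, from 0) in every library, with a line at the group mean and a bar of 1 SD on each side. HFD-3 is the highest of the 5 HFD points in all 9 panels and ND-1 the lowest of the 3 ND points, and the groups are apart for Acat2, Mvd and Fdps.

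Depth differed between libraries. Gene counts summed to 30501673 to 36152937 in a deep set of 2 ND libraries (1 and 3) and 2 HFD libraries (1 and 2) and to 12678616 to 18401981 in a shallow set (ND-2 and the other 3 HFD libraries). Differences of mean log2 FPKM for the 9 genes ran from -2.83 to -0.68 among deep libraries (median -1.22) and from -2.95 to -0.86 among shallow ones (median -2.05). The chow side of the shallow set is ND-2 alone, the highest of all libraries for 8 of the 9 genes, so values below 0 were nearly fixed there. The same differences over all genes were not computed. The counts behind the 9 genes ran from 34 for Mvd in HFD-5 to 22234 for Hmgcs1 in ND-3. In bulk liver, fewer cells of a type and less RNA per cell cannot be told apart. The 12 hepatocyte markers summed to 68188 to 73896 FPKM in ND and 73034 to 76106 FPKM in HFD, and none of them was at 0.

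The upstream sequences of the genes that were low together are shown here for their known SREBP cofactor site, the CCAAT box bound by NF-Y, a factor that assists SREBP at sterol genes. RefSeq promoter sequences of the build GRCr8 matched 6 of the 9 genes: Acat2, Hmgcs1, Mvk, Mvd, Idi1 and Fdps. The 250 bases before the start of the 4 genes with more than 1 CCAAT box follow, 5′ to 3′ on the gene's strand, with CCAAT or its reverse complement ATTGG in capitals.
Hmgcs1, chr2:53382054-53382303, plus strand: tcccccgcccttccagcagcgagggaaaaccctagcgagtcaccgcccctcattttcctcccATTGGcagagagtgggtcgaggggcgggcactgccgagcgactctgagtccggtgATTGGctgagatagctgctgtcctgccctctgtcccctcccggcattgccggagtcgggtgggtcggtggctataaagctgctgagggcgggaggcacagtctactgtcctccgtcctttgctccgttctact
Mvk, chr12:47819504-47819753, minus strand: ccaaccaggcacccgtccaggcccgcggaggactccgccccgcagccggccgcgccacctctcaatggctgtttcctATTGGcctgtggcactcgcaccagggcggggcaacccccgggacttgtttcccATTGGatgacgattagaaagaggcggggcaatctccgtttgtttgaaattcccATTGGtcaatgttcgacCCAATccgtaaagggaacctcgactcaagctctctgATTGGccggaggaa
Idi1, chr17:66547525-66547774, minus strand: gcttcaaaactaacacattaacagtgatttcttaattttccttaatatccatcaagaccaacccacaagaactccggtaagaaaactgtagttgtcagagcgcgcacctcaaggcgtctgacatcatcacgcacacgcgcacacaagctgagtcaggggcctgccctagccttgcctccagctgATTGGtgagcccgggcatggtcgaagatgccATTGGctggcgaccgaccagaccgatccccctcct
Fdps, chr2:176804817-176805066, minus strand: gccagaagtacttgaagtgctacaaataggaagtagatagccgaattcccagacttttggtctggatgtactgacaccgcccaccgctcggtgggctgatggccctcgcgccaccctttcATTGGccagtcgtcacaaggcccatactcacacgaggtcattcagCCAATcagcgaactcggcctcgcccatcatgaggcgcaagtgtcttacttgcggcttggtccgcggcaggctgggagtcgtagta
Searched on both strands, the box CCAAT occurred in 5 of the 6 windows, in all but Acat2, and in 34.0% of the 33469 rat promoter windows of this length. At least 2 boxes were present in these 4 genes and in 9.42% of all windows. The Mvk window held 5, and 0.179% of all windows held at least as many. The GC box GGGCGG, a site of Sp1, was in 5 of the 6 windows (all but Idi1) and in 30.5% of all. These windows were rich in G and C, at 52.8% to 65.6%, where the median window held 51.2%. The letters TCACCCCAC of the classical SRE-1 and the E-box CACGTG matched none of the 6, which says only that these exact letters are not in these windows. SRE-1 was in 0.409% and the E-box in 5.59% of all windows. CCAAT and GC box matches did not overlap one another. Mvk, with 5 CCAAT boxes, had the smallest fold change of the 9 genes, and Acat2, with 0, the largest. A link between the number of boxes and the fold change was not tested. The motifs were chosen after these sequences had been seen, so the shares only describe these windows.

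Acat2 and Hmgcs1 encode the enzymes that build HMG-CoA in the cytosol. Acat2, the cytosolic acetoacetyl-CoA thiolase (ENSRNOG00000019189, Rnor_6.0 chromosome 1, 47972399 to 47992653), stood at 4.80, 17.1 and 9.47 FPKM in ND-1 to ND-3 and at 2.63, 2.03, 3.78, 1.68 and 1.69 FPKM in HFD-1 to HFD-5. The groups did not overlap, and ND-2 was the highest library. Mean levels were 10.4 ± 6.20 and 2.36 ± 0.883 FPKM (SD, n = 3 and n = 5), with a log2 fold change of -2.14 ± 0.37 (SE) and an adjusted p of 0.118 by edgeR. Hmgcs1, the cytosolic HMG-CoA synthase (ENSRNOG00000016552, chromosome 2, 52431601 to 52445055), stood at 91.0, 258 and 226 FPKM in ND and at 81.1, 46.8, 224, 32.7 and 32.9 FPKM in HFD. HFD-3 reached the level of ND-3, while the other 4 HFD libraries lay below every chow library. The log2 fold change was -1.21 ± 0.63 with an interval that includes 0 (95% interval -2.62 to 0.20, edgeR adjusted p = 0.940), and it was -1.99 without HFD-3 (adjusted p = 0.190).

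A row next to Acat2 had a like profile. RGD1562948 starts 3.87 kb beyond the end of Acat2 on chromosome 1 (47996521 to 48026268), and its description in the files, similar to Ab2-076, names a protein that RefSeq lists as a synonym of Acat2. It stood at 0.980, 4.05 and 2.06 FPKM in ND and at 0.573, 0.514, 0.854, 0.516 and 0.469 FPKM in HFD (log2 fold change -1.99 ± 0.39, adjusted p = 0.148). No source used here states how reads common to such copies were counted, so Acat2 and this row may share reads and their levels are uncertain. RefSeq also names 3 copies of Acat2, 5 of Fdps and 1 of Idi1 by symbol, most of them pseudogenes, and the same limit applies to these genes. No source used here states whether the Acat2 copy Acat2l1 is the same gene as RGD1562948. Idi2, the relative of Idi1, had 0 counts in every library.

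Mvk, Pmvk and Mvd encode the enzymes that turn mevalonate into isopentenyl diphosphate. Mvk, mevalonate kinase (ENSRNOG00000049604, chromosome 12, 47904719 to 47919400), stood at 5.54, 11.7 and 9.55 FPKM in ND and at 4.68, 4.42, 7.73, 6.69 and 5.17 FPKM in HFD. It was the gene whose diets met most: HFD-3 and HFD-4 lay above ND-1. Its log2 fold change of -0.64 ± 0.25 (adjusted p = 0.827) was the smallest of the 9. Pmvk, phosphomevalonate kinase (ENSRNOG00000020696, chromosome 2, 188784222 to 188793895), stood at 16.0, 39.3 and 37.3 FPKM in ND and at 8.86, 8.80, 18.9, 10.9 and 9.46 FPKM in HFD. ND-1 and HFD-3 lay close together between the other libraries of the diets. The log2 fold change of Pmvk was -1.45 ± 0.32 (adjusted p = 0.272 by edgeR, 0.00453 by DESeq2). Mvd, mevalonate diphosphate decarboxylase (ENSRNOG00000013376, chromosome 19, 55258905 to 55268951), stood at 4.63, 14.3 and 6.67 FPKM in ND and at 2.25, 1.69, 3.59, 2.19 and 1.09 FPKM in HFD. Every HFD library was below every chow library, and ND-2 stood well above the other chow libraries. Its log2 fold change was -1.98 ± 0.39 (adjusted p = 0.150 by edgeR, 0.000296 by DESeq2), and -1.45 without ND-2.

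Idi1 and Fdps make and join the isoprenoid units. Idi1, isopentenyl diphosphate isomerase (ENSRNOG00000016690, chromosome 17, 57976268 to 57984036), stood at 15.8, 28.7 and 36.5 FPKM in ND and at 10.9, 10.1, 21.0, 5.88 and 4.83 FPKM in HFD. It was the only one of the 9 genes that was highest in ND-3, and HFD-3 lay above ND-1. The log2 fold change was -1.38 ± 0.43 (adjusted p = 0.600) with all libraries. The edge of Idi1 with the higher coordinates overlaps Wdr37, whose own mean was 5.08 FPKM in ND and 5.10 FPKM in HFD. Fdps, farnesyl diphosphate synthase (ENSRNOG00000043377, chromosome 2, 188392858 to 188413219), stood at 58.6, 137 and 91.8 FPKM in ND and at 30.8, 32.3, 49.0, 28.2 and 21.5 FPKM in HFD. The groups did not overlap, and 4 of the 5 HFD libraries lay close together. Mean levels were 95.7 ± 39.2 and 32.4 ± 10.2 FPKM, with a log2 fold change of -1.57 ± 0.28 (adjusted p = 0.118 by edgeR, 5.96e-05 by DESeq2). Fdps and Pmvk are neighbours at the scale of a chromosome, 371 kb apart. Hmgcs1 is on chromosome 2 too, and the remaining genes lie on 6 other chromosomes.

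Fdft1 and Sqle encode the steps committed to sterols. Fdft1, squalene synthase (ENSRNOG00000021314, chromosome 15, 46339249 to 46367302), stood at 39.7, 73.9 and 66.9 FPKM in ND and at 32.5, 21.8, 43.2, 21.8 and 19.4 FPKM in HFD. HFD-3 was slightly above ND-1 and the other HFD libraries were below all chow libraries. The log2 fold change was -1.13 ± 0.28 (adjusted p = 0.340 by edgeR, 0.0222 by DESeq2). Sqle, squalene epoxidase, a rate-limiting enzyme of sterol synthesis (ENSRNOG00000009550, chromosome 7, 99609191 to 99624732), stood at 9.90, 31.0 and 21.6 FPKM in ND and at 2.31, 1.83, 17.2, 2.43 and 2.03 FPKM in HFD. HFD-3 lay within the chow range, at 8.01 times the mean of the other 4 HFD libraries, which sat close together. With all libraries the log2 fold change was -2.04 ± 0.76 (adjusted p = 0.785). Without HFD-3 it was -3.27 ± 0.32 and passed (adjusted p = 0.0330 by edgeR), a 9.63-fold lower level, where 0.0139% of genes were called lower. Leaving out the highest HFD library lowers the HFD mean by itself.

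**Figure D2:**
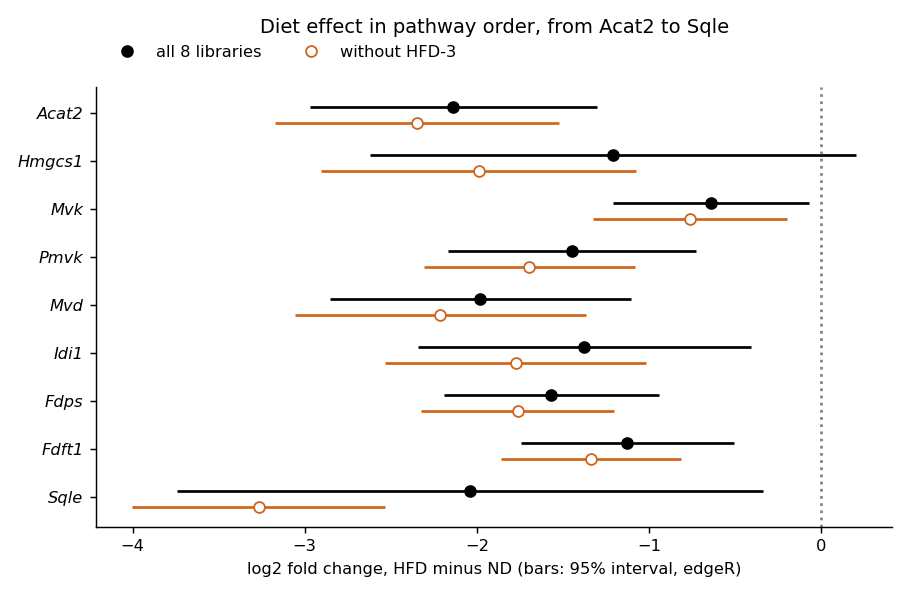
The log2 fold change (HFD minus ND, horizontal axis) is plotted for each gene in pathway order, with all 8 libraries (filled) and without HFD-3 (open), and bars give the 95% interval of the edgeR fit. All 18 points lie left of 0; the interval of Hmgcs1 reaches 0.20 with all libraries, and the change of Sqle moves from -2.04 to -3.27 when HFD-3 is left out.

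The size of the HFD-3 excess differed from gene to gene. HFD-3 exceeded the mean of the other 4 HFD libraries 8.01-fold for Sqle, 4.63-fold for Hmgcs1 and 2.65-fold for Idi1. The ratio was between 1.47 and 1.99 for the other 6 genes. Without HFD-3, 9 of the 9 genes were lower at an unadjusted p under 0.05 (2.73% of all genes), 1 passed edgeR, and DESeq2 called 8, all but Mvk (0.449% of all genes). HFD-3 was the highest HFD library for all 9 genes, so leaving it out lowers each HFD mean, and these counts add no independent support. In the same library all 11 Kupffer cell and macrophage markers were the highest of the 8 libraries, and they summed to 758 FPKM against 267 to 370 FPKM in the other HFD libraries and 311 to 444 FPKM in ND. The 12 lymphocyte and neutrophil markers summed to 51.6 FPKM in HFD-3 and to 12.5 to 29.4 FPKM elsewhere. No marker of either list was at 0 in all libraries. The part of these cells in the levels of the 9 genes in HFD-3 was not tested.

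The chow libraries also differed from one another. The 9 genes summed to 246 FPKM in ND-1, 611 FPKM in ND-2 and 506 FPKM in ND-3, and to 176, 130, 389, 112 and 98.0 FPKM in HFD-1 to HFD-5. ND-2 was the highest of all libraries for 8 of the 9 genes. Without ND-2 the median log2 fold change was -1.27, and DESeq2 called 3 of the 9 lower (0.336% of all genes). The library ND-3 differed from the others in several lists. Arntl, which encodes the activator BMAL1, was at 13.5 FPKM there against 0.384 to 1.57 FPKM elsewhere, and the clock output gene Dbp was at 1.55 FPKM against 15.9 to 36.5 FPKM. In ND-3, 15 of 19 clock genes were above or below every other library, as were 4 of 5 erythroid markers, 5 of 12 hepatocyte markers, 1 of the 9 pathway genes (Idi1) and 23.8% of all tested genes. The erythroid markers summed to 1965 FPKM in ND-3 and to 632 and 844 FPKM in the other ND libraries. Without ND-3 the median log2 fold change was -1.27, DESeq2 called 3 lower (0.323% of all genes), and 5 were lower at an unadjusted p under 0.05 (2.1% of all genes). The part of the clock state and of erythroid cells in the level of these genes was not tested.

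**Figure D3:**
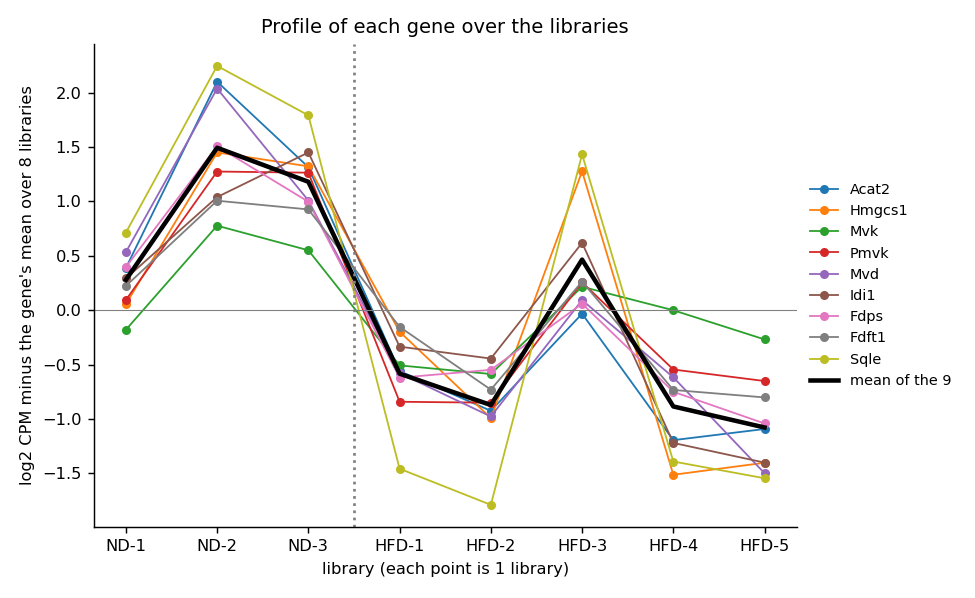
Lines join the log2 CPM (edgeR's library-scaled counts) of each gene after subtraction of its mean over the 8 libraries (vertical axis), library by library, with the mean of the 9 genes in black; libraries of a diet have no order. The mean runs from 1.49 in ND-2 to -1.08 in HFD-5, with HFD-3 at 0.46, above ND-1 at 0.28.

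The order of the levels was largely kept between the diets. Hmgcs1 was the highest of the 9 in 8 of 8 libraries. Fdps followed in 7 of the 8 and Fdft1 in HFD-1. In ND the means then went from Pmvk (30.9 ± 12.9 FPKM) to Idi1 (27.0 ± 10.4), Sqle (20.8 ± 10.6), Acat2 (10.4 ± 6.20), Mvk (8.92 ± 3.12) and Mvd (8.52 ± 5.08). In that order only Fdft1 and Pmvk were neighbours whose ranges did not overlap, in ND and in HFD alike. In HFD, Mvk (5.74 ± 1.42 FPKM) came before Sqle (5.17 ± 6.75), and Sqle was above Mvk in HFD-3 but in no other HFD library. Mvk made up 1.89% to 2.25% of the FPKM of the 9 genes in ND and 1.99% to 5.95% in HFD. The share of Sqle was 4.02% to 5.07% in ND and 1.31% to 4.44% in HFD.

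The rest of the sterol pathway showed the same direction. Of 11 tested genes from squalene epoxide onwards, 11 lay below 0 in the fit, against 48.8% of all genes. Their median log2 fold change was -1.30. Of these, 0 passed edgeR and 10 were lower at an unadjusted p under 0.05, against 2.83% of all genes. DESeq2 called 7 lower, against 0.442% of all genes. Ebp, a sterol isomerase, and Lss, lanosterol synthase, had the smallest p, with log2 fold changes of -0.92 ± 0.13 and -1.38 ± 0.21 (both adjusted p = 0.0851). HFD-3 was the highest of the HFD group for 7 of the 11, against 24.1% of all genes.

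Genes of the nonsterol branches had a median near that of all genes. Of 18 tested genes of ubiquinone, dolichol and protein prenylation, 8 had lower and 10 higher fitted values, and the median log2 fold change was 0.01. None passed edgeR or DESeq2, and at an unadjusted p under 0.05, 2 were lower and 1 was higher, where 2.83% and 2.88% of all genes were. Dhdds, a subunit of the enzyme that makes the dolichol chain, had a log2 fold change of 0.32 ± 0.10 (adjusted p = 0.587), and Pggt1b, a subunit of a geranylgeranyl transferase, one of -0.48 ± 0.15 (adjusted p = 0.604).

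Among 18 tested regulators of sterol synthesis, 10 had lower fitted values, where 48.8% of all genes had. Their median log2 fold change was -0.04 and 0 passed edgeR. At an unadjusted p under 0.05, 3 were lower, against 2.83% of all genes. Among the 3 were Insig1 and Srebf1, which encodes SREBP-1 (log2 fold change -0.84, adjusted p = 0.836). Insig1, which retains the SREBP complex in the endoplasmic reticulum and is itself a SREBP target, was at 275 ± 44.0 FPKM in ND and 101 ± 47.6 FPKM in HFD (log2 fold change -1.45 ± 0.36, adjusted p = 0.356 by edgeR, 0.0141 by DESeq2). Srebf2, which encodes SREBP-2 itself, had a log2 fold change of -0.41 (adjusted p = 0.942).

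Acat1, the mitochondrial thiolase and a relative of Acat2, had a log2 fold change of 0.33 (adjusted p = 0.975), against -2.14 for Acat2. Acat1 belongs to a list of 7 tested relatives and acetyl-CoA enzymes, of which 3 that make or activate cytosolic acetyl groups were lower at an unadjusted p under 0.05: Acss2, acetyl-CoA synthetase (log2 fold change -1.78 ± 0.24, adjusted p = 0.0732), Acly, ATP citrate lyase (-2.41 ± 0.43, adjusted p = 0.118), and Aacs, acetoacetyl-CoA synthetase (-2.37, adjusted p = 0.361). Over all genes, 2.83% were lower at that unadjusted limit. None of the 7 passed edgeR, and DESeq2 called these 3 lower, against 0.442% of all genes. The difference between Acat1 and Acat2 was not tested.

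**Figure D4:**
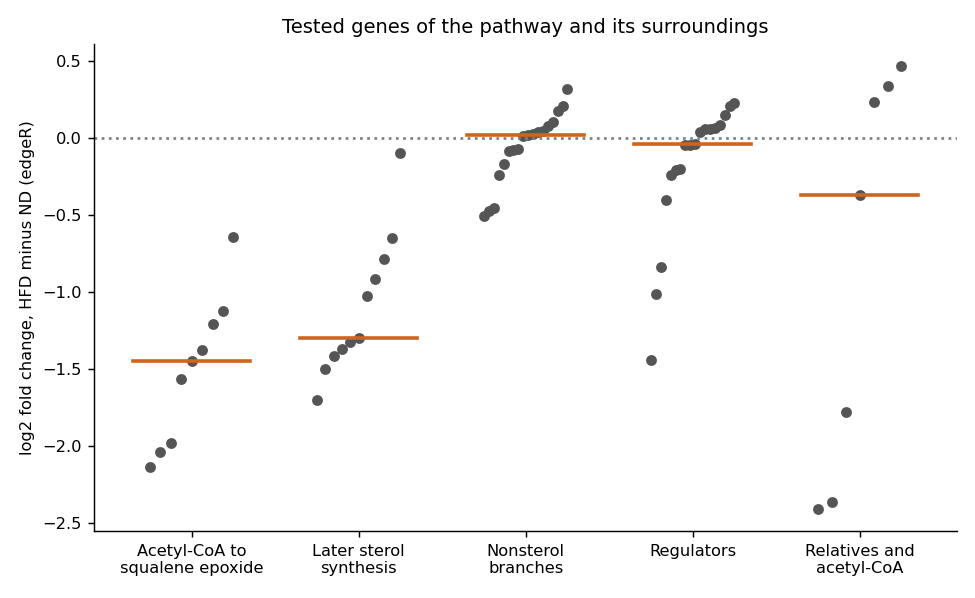
Each point is the edgeR log2 fold change (HFD minus ND, vertical axis) of 1 tested gene, and bars are medians, for the 9 genes and the 4 surrounding lists. The medians are -1.45 and -1.30 for the early and later sterol steps, 0.01 for the nonsterol branches, -0.04 for the regulators and -0.38 for the relatives and acetyl-CoA enzymes.

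The genes whose profile over the 8 libraries lay closest to the mean of the 9 included other sterol enzymes. Closeness was measured as the root mean squared difference of centred log2 CPM, which was 0.0803 for Cyp51, lanosterol demethylase, 0.239 for Dhcr7, 0.299 for Hsd17b7, 0.302 for RGD1562948 and 0.337 for Ddhd1. The median over all genes was 0.968. Dhcr7 and Hsd17b7 encode reductases of late sterol synthesis, and Ddhd1 encodes a phospholipase. Within the 9, the distance ran from 0.205 for Fdps to 0.581 for Mvk and 0.719 for Sqle, and Hmgcs1 was at 0.417. Cyp51 was at 52.0, 127 and 95.2 FPKM in ND and 29.2, 24.6, 63.0, 27.2 and 18.0 FPKM in HFD. Its log2 fold change was -1.50 ± 0.38 (adjusted p = 0.372), and since it was picked for its likeness to the 9 genes, its pattern adds no support to theirs.

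Long noncoding transcripts annotated at the same loci gave another readout. Of 31243 lncRNA transcripts, 11 overlapped the span of 5 of the 9 genes (Acat2, Hmgcs1, Pmvk, Mvd and Fdps). Of these, 3 were listed at 0 in every library and 8 were tested. All 8 had lower fitted values in HFD, as had 52.4% of all tested transcripts. Of the 8, 0 passed limma's test on log2(FPKM + 0.5), where 0.00505% of all passed as lower, and 4 were lower at an unadjusted p under 0.05, against 2.58% of the 19799 tested transcripts. NONRATT002149.2, inside Acat2 (chromosome 1, 47972763 to 47977406), stood at 33.9, 146 and 76.8 FPKM in ND and at 19.6, 13.7, 28.5, 10.6 and 14.1 FPKM in HFD. NONRATT014789.2, inside Mvd (chromosome 19, 55258910 to 55259401), stood at 49.9, 168 and 72.6 FPKM in ND and at 34.6, 19.3, 27.9, 15.0 and 25.7 FPKM in HFD. Neither pair of ranges overlapped, and ND-2 was the highest library for both, as it was for Acat2 and Mvd. Their log2 differences were -2.12 ± 0.45 and -1.83 ± 0.39 (both adjusted p = 0.386 by limma). In NONRATT002148.2, also inside Acat2, the ranges were apart too, which makes 3 of the 8 tested transcripts against 2.14% of all. No source used here states whether counting used strand, and reads of these transcripts and of the genes cannot be told apart. Within Fdps, NONRATT016585.2 and NONRATT016587.2 had log2 differences of -0.27 and -0.11 (both adjusted p = 0.989), where Fdps itself had -1.57.

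Markers of the liver's other cells gave no list in which a gene passed edgeR. The genes with the smallest p were Cps1 and Cyp2e1 for hepatocytes (adjusted p = 0.836 and 0.909), Cd68 and Marco for Kupffer cells (both 0.993) and, for lymphocytes and neutrophils, genes that include Ms4a1 (0.993). For stellate cells they were Acta2 and Col1a2 (0.940 and 0.993), for endothelial cells Eng and Clec4g (0.818 and 0.836), for cholangiocytes Epcam and Spp1 (0.874 and 0.993) and for erythroid cells Alas2 and Hbb (both 0.993). In the clock list they were Arntl and Cry1 (0.502 and 0.836). Summed markers of stellate, endothelial, cholangiocyte and erythroid cells overlapped between the diets, for instance endothelial cells at 71.0 to 86.1 FPKM in ND and 84.8 to 96.7 FPKM in HFD. Their part in the levels of the 9 genes was not tested.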

How the data were processed

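Per the labels' protocols, liver RNA was made into libraries with a TruSeq RNA kit. The submitters' processing notes name Rnor_6.0 as the genome, and the tools TopHat2 2.0.9, Cufflinks 2.2.1 and Cuffdiff, with no role for each. The deposited gene table holds counts and FPKM for each Ensembl gene, and a deposited lncRNA table holds FPKM for each transcript. Gene FPKM equal counts over length and column sum, within 9.1e-06 in implied length for 7875 genes.

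Counts were tested over the whole table with edgeR 4.0.16 in R 4.3.3 (TMM, filterByExpr, quasi-likelihood, 2-sided, no covariate; 14148 of 32545 genes kept). The lncRNAs were tested with limma 3.58.1 (trend) on log2(FPKM + 0.5), keeping those that reached 0.5 FPKM in at least 3 libraries. DESeq2 1.42.0 was an alternative, and a gene it left without an adjusted p counted as not tested. Adjusted p under 0.05 counted as passing. A log2 fold change is HFD minus ND. Profiles used log2 CPM with a prior count of 2.

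The 9 genes, the lists and the tests were chosen with earlier results of these data known, and the promoter motifs after the sequences had been seen. Of 153 listed symbols, 146 were in the table. Genes are named by rule: the 9, the 2 of each list with the smallest p, the 5 closest profiles, Arntl and Dbp. Genes of further counts of 5 or fewer, and Acat1, Srebf2 and Wdr37, were named after their values were seen. Some genes that this rule names are not reported here. Within each diet, counts of any 2 libraries differed by a chi-square of 25.2 per degree of freedom or more, which is beyond counting noise. The lowest pair was HFD-4 and HFD-5, and the next was HFD-3 and HFD-4 at 50.4. This cannot tell whether 2 libraries were prepared from the same rat, since separate preparations also differ beyond counting noise.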

Additional observations from a re-analysis of the deposited data

Results flagged for a closer look

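Of 46 groups of 5 HFD libraries examined, 6 had 1 library whose distance to the nearest of the others, set against the whole range, passed Dixon's 95% limit of 0.71. Chance gives about 1 in 20 groups, but these groups share libraries and are not independent. In all 6 the library was HFD-3. Sqle was at 17.2 FPKM in HFD-3 and 1.83 to 2.43 FPKM in the other HFD libraries. Hmgcs1 was at 224 FPKM against 32.7 to 81.1 FPKM. Pmvk was at 18.9 FPKM against 8.80 to 10.9 FPKM. The macrophage marker Cd68 was at 18.9 FPKM against 6.41 to 9.71 FPKM. Cyp51, at 63.0 FPKM against 18.0 to 29.2 FPKM, and RGD1562948, at 0.854 FPKM against 0.469 to 0.573 FPKM, had been picked for profiles close to the 9 genes, so their high values in HFD-3 are part of that choice. The ND group, with 3 libraries, was too small for this check.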

How the results depend on the processing

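All 9 genes kept a lower fitted value under each of the 16 alternatives run, and the median log2 fold change stayed between -1.77 and -1.27. Genes passing over all genes numbered 1, and 18 without a filter on low counts, 131 by DESeq2, 5 with the depth set as a covariate, 0 by limma on log2(FPKM + 1) and 0 with the replicate number as a block. Leaving out 1 library gave 0 to 9. Of the 9 genes, 0 passed, 5 by DESeq2 and 0 to 1 without 1 library. The 1 was Sqle without HFD-3. DESeq2 called 3 to 8 without 1 library, and 5 to 9 had an unadjusted p under 0.05. Ranges were apart for 3, and for 3 to 9 without 1 library (8 without HFD-3, 9 without ND-1). For lncRNAs, 2 transcripts passed in all, 0 with the replicate block and 0 to 3 without 1 library, and 0 of the 8 at these loci passed under any alternative. The only changes of sign came with 1 library left out. Hbb then ran from -0.0095 (without ND-1) to 0.92, and Col1a2 from -0.73 to 0.0036 (without ND-2). Ms4a1 ran from -1.04 to 0.20 (without ND-3), and NONRATT016585.2 from -0.55 to 0.10 (without ND-2). NONRATT016587.2 ran from -0.30 to 0.092, above 0 without ND-2, HFD-1 or HFD-2. The cause was not tested.

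Libraries of the diets share replicate numbers 1 to 3, and no label says that equal numbers belong together. Deviations of libraries with the same number correlated across genes at 0.112, -0.275 and 0.0735. Pairs with unlike numbers ran from -0.321 to 0.347. With so few libraries these values cannot exclude a link by number. With the replicate block the median log2 fold change of the 9 was -1.33. The DESeq2 and unadjusted counts without each library, and the ranges on TMM-scaled CPM (3 apart), were chosen after seeing the data. The lowest count behind a value of the 9 genes was 34, which limits its precision.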
